A study of Mus musculus with 10 samples.

Results

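The killer cell lectin-like receptors are C-type lectin-like membrane proteins encoded in the natural killer gene complex. The 10 genes described here were chosen by name, Klrd1, Klrk1, Klrc1, Klrc2, Klre1, Klrg1, Klra3, Klra6, Klra7 and Klrb1c, out of 57010 genes in the deposited table. All 10 were detected and all 10 were among the 18966 genes that passed the low-count filter. RNA was sequenced in bulk from CD8+ T cells of the spleen of 5 mice. In 3 mice (Dusp2fl/fl-E8I-cre+/-, cKO) both Dusp2 alleles were floxed and the E8I-cre transgene, which acts in CD8+ T cells, was present. The 2 control mice (Dusp2fl/fl-E8I-cre-/-) carried the same floxed alleles without cre, so all 5 animals had floxed Dusp2, and loss of Dusp2 and presence of cre cannot be told apart. Each mouse gave cells cultured with anti-CD3/CD28 beads over 24 h, called activated, and cells kept for the same 24 h without beads, called rested, for 10 libraries in all. Control mouse 1 and cKO mice 1 and 2 were male, and control mouse 2 and cKO mouse 3 were female. Ages were not used here. In cKO mouse 3 the titles of both libraries contradict their other labels: the library labelled activated is titled rested, and the library labelled rested is titled an activated floxed control. The grouping follows the genotype, treatment and library names, and counts of genes are given with and without this mouse.

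These receptors tune killer lymphocytes by reading molecules on neighbouring cells. CD94, the Klrd1 product, pairs with NKG2A (Klrc1), which carries an inhibitory tail, or with NKG2C (Klrc2), which signals through an adaptor, and both pairs read the non-classical MHC molecule Qa-1. NKG2D (Klrk1) is an activating receptor for stress-induced ligands, the Ly49 proteins (Klra genes) bind classical MHC class I or related molecules, and KLRG1 is an inhibitory receptor for cadherins found on effector T cells. Natural killer cells carry most of them, and CD8+ T cells gain several with antigen experience.

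The 10 genes lie on chromosome 6 (mm39, positions from the deposited table) in 2 clusters, with 2 genes apart from them. Klrg1 lies at 122247555 to 122259841, with 6.50 Mb between it and Klrb1c at 128755448 to 128766178. Klre1 (129554868 to 129562790), Klrd1 (129568745 to 129575738), Klrk1 (129587286 to 129600827), Klrc2 (129624459 to 129637652) and Klrc1 (129642978 to 129655936) follow each other with gaps of 5.96, 11.5, 23.6 and 5.33 kb. The Ly49 genes Klra6 (129989996 to 130003917), Klra7 (130195568 to 130210285) and Klra3 (130300252 to 130314537) come after a gap of 334 kb. Klrc1 and Klrc2 lie beside each other, and in the GENCODE M21 transcripts 38.6% of the 50-base words of Klrc1 also occur in another Klr gene, 36.6% in Klrc2. The shares were 16.3% for Klrc2, 20.7% for Klra3, 12.3% for Klra7, 5.99% for Klrb1c and 2.62% for Klra6. For Klra7 the 12.3% occurred in the pseudogene Klra13-ps. No word was shared for Klrd1, Klrk1, Klre1 and Klrg1. Reads from shared stretches could be counted for the other copy or dropped, so the levels of the first 6 are less certain. Klrb1c overlaps the gene Gm44511, and its counts may hold reads of that gene.

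Promoter sequences were looked up by symbol for the 10 genes in the RefSeq table (GRCm38.p6) and 8 had an entry, all but Klrd1 and Klrg1. The 250 bases before the start were searched on both strands for TGTGGT (core letters of the RUNX factors), GGTGTGA (T-box factors) and TGANTCA (AP-1). The RUNX letters were found in 5 of the 8 (Klrk1, Klrc1, Klrc2, Klre1 and Klrb1c) and in 14.2% of 27025 promoters. The T-box and AP-1 letters were found in 0 of the 8, against 3.31% and 6.87% of promoters. A match describes letters and is not a binding site. The 3 windows below are shown because each holds the RUNX letters (in capitals, on either strand) once, while the 3 genes moved in different directions with activation: Klrc1 rose, Klrb1c fell and Klrk1 did not pass the test. All 3 are read 5′ to 3′ along the gene, on the minus strand of GRCm38.p6: chr6:129678974-129679223 for Klrc1, chr6:128788642-128788891 for Klrb1c and chr6:129623865-129624114 for Klrk1. The match begins 87, 89 and 129 bases before the start in this order.
Klrc1: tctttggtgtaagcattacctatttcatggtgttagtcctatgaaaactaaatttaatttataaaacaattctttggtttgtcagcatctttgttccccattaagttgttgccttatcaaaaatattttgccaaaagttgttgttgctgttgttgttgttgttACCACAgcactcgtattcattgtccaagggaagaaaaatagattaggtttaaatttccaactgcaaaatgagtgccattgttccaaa
Klrb1c: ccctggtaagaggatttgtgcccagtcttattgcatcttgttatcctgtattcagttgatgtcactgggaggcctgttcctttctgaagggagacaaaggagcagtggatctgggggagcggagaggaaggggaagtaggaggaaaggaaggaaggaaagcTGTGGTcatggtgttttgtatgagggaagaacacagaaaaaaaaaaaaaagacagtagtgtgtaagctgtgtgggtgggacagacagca
Klrk1: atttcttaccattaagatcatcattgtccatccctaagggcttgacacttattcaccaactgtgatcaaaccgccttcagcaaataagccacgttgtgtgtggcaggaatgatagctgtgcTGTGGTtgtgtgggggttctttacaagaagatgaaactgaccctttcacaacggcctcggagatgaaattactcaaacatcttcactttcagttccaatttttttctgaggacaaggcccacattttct

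Dusp2, the targeted gene (ENSMUSG00000027368, chromosome 2, 127178079 to 127180296), encodes a phosphatase of MAP kinases and was read first as a check of the labels. Levels are CPM, counts scaled to library size with TMM factors. At rest it stood at 87.8 and 97.4 CPM in control mice 1 and 2, and at 25.0, 24.8 and 28.1 CPM in cKO mice 1 to 3. After activation it stood at 291.8 and 298.7 CPM against 56.3, 46.4 and 52.6 CPM, so the cKO libraries lay below the control libraries in both states. Nr4a1, induced by T cell receptor signals, ranged from 2.23 to 5.13 CPM in rested and from 795 to 1051 CPM in activated libraries. Both genes placed the libraries of cKO mouse 3 with the groups used here. Libraries held 51203786 to 65135435 counts, and 3 counts, the limit that a count of 0 allows, correspond to 0.0453 to 0.0602 CPM. Cd8a ranged from 512 to 659 CPM. Of the natural killer cell markers, Ncr1 had 0 counts in the 5 rested libraries. Summed over the activated ones it had 2 (control) and 6 (cKO) counts, and Cma1 had 0 in all 10. Other natural killer cell markers were detected: in rested control cells Prf1, which T cells express too, averaged 37.3 CPM and Itga2 8.236 CPM. Whether natural killer cells were present was not tested.

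Klrd1 dominated the family. FPKM, the deposited values scaled to gene length and library, set levels against each other between genes, but depend on the length taken for each gene. That was 7183 bases for Klrk1, 5812 for Klrc2, 1984 for Klrc1 and 1281 for Klrd1. In CPM, Klrk1 averaged 5.31 against 3.70 for Klrc1 in rested control cells, and 7.49 against 7.17 in rested cKO cells. After activation Klrc1 averaged above Klrk1 in CPM too. In rested control cells the mean was 163 ± 1.8 FPKM for Klrd1 (SD, n = 2) and 1.82 ± 1.79 FPKM for Klrc1, the next in order, with no overlap between their libraries. Klrk1 (0.721), Klra7 (0.565), Klrc2 (0.429), Klra3 (0.334), Klre1 (0.31), Klra6 (0.203) and Klrb1c (0.198 FPKM) followed, each overlapping its neighbour, and Klrg1 came last at 0.12 ± 0.003 FPKM. In activated control cells Klrd1 stood at 57.9 ± 12.1 FPKM, Klrc1 at 7.63 ± 5.83 FPKM and Klra7 at 1.23 ± 0.89 FPKM. There too Klrd1 and Klrc1 overlapped neither each other nor Klra7, and Klrb1c was last at 0.0673 ± 0.0295 FPKM. The cKO cells gave the same first 2 places, with Klrd1 at 153 ± 22.2 and Klrc1 at 3.52 ± 2.18 FPKM at rest and 59.4 ± 13.5 and 14.1 ± 7.2 FPKM after activation (n = 3). Of the summed CPM of the 10 genes, Klrd1 made up 85.4% to 96.8% in rested and 52.4% to 80.8% in activated libraries. In bulk RNA, fewer cells of a type and less RNA per cell cannot be told apart, here and in all that follows.

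**Figure D1:**
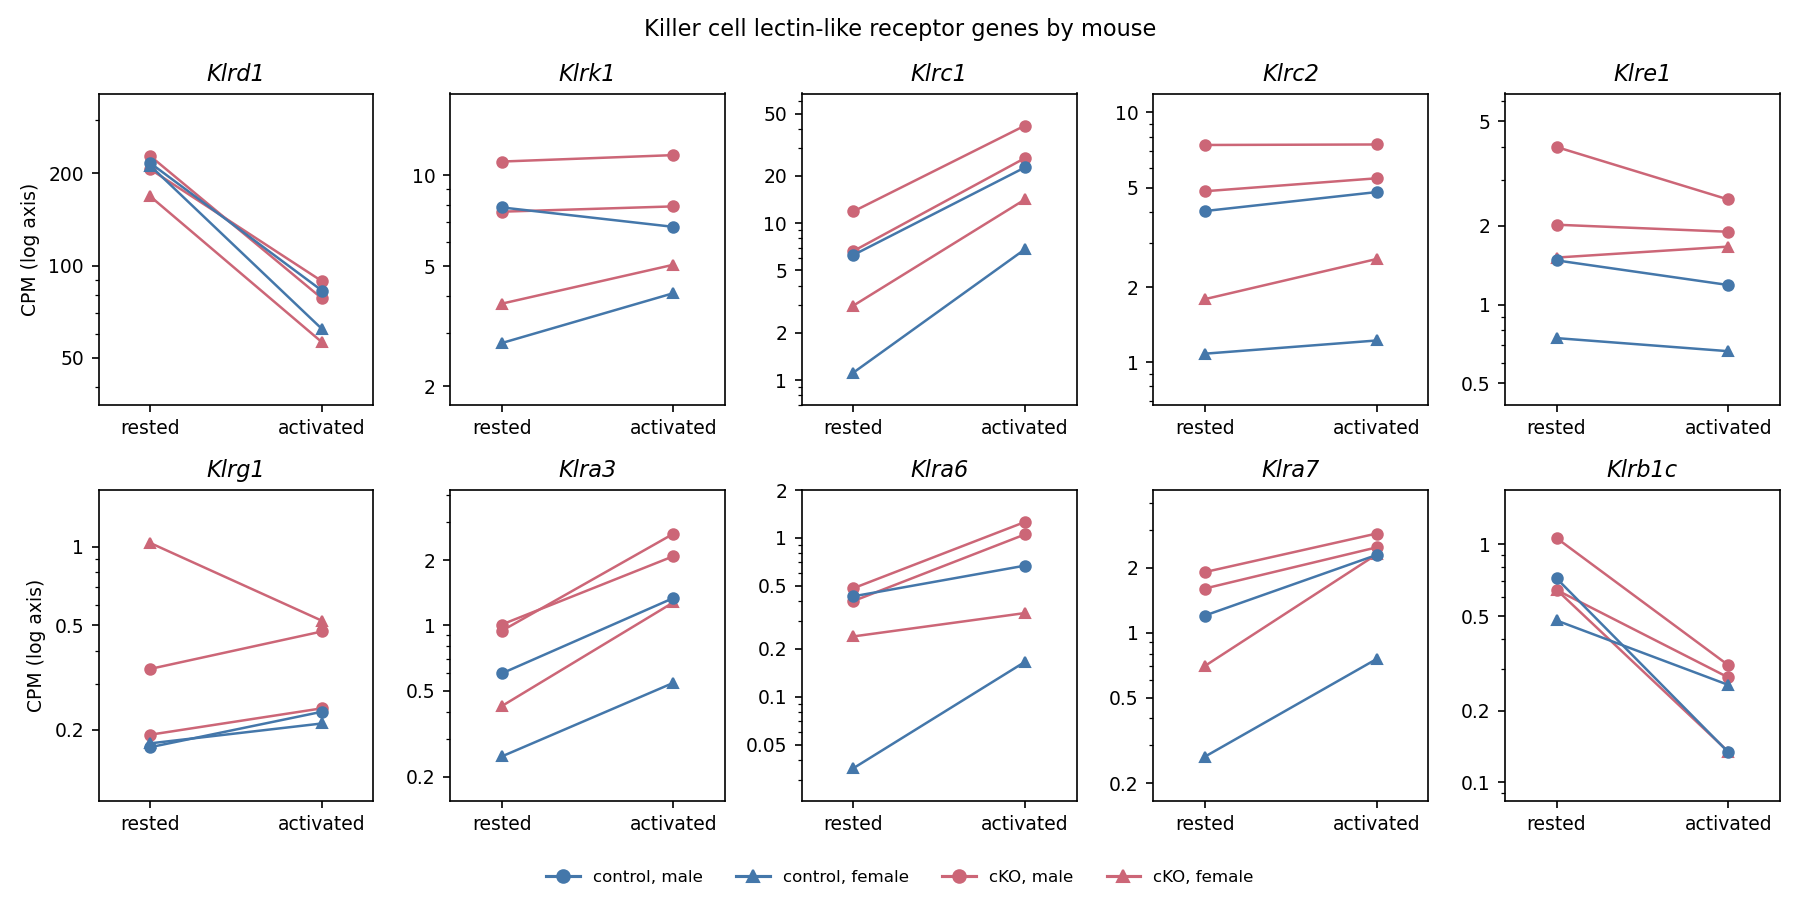
Level of each of the 10 receptor genes in CPM (log axis, own scale per gene) in rested and activated cells, with a line joining the 2 libraries of a mouse, blue for control, red for cKO, circles for males and triangles for females. Klrd1 and Klrb1c go down and Klrc1, Klrc2, Klra3, Klra6 and Klra7 go up in all 5 mice (Klrc2 by only 1.005 to 1.45 times), and the females lie below the males in both states for Klrk1, Klrc1, Klrc2, Klra3 and Klra6.

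Klrd1 fell with activation in every mouse. Klrd1 (ENSMUSG00000030165) encodes CD94, the partner that NKG2A and NKG2C need at the cell surface. In the control mice it went from 216 to 82.9 CPM and from 212 to 62.1 CPM, and in cKO mice 1 to 3 from 228 to 78.2, from 206.5 to 89.0 and from 168 to 56.2 CPM. The highest activated library (89.0 CPM) lay below the lowest rested one (168 CPM). The log2 fold change was -1.59 (SE 0.12) in control and -1.44 (SE 0.10) in cKO cells. The adjusted p of the quasi-likelihood F test of edgeR (Benjamini-Hochberg) was 6.168e-07 and 1.356e-07. SE here is the log2 fold change over the square root of the test's F.

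Klrc1 (ENSMUSG00000030167), which encodes the inhibitory partner NKG2A, moved the other way. In the control mice it went from 6.28 to 22.7 CPM and from 1.12 to 6.84 CPM, and in the cKO mice from 11.9 to 41.9, from 6.65 to 26.0 and from 2.99 to 14.2 CPM. It was 3.53 to 6.12 times higher after activation within a mouse, although mice differed so much that the lowest activated library lay among the rested ones. The log2 fold change was 2.08 (SE 0.41) in control and 2.01 (SE 0.32) in cKO cells, with an adjusted p of 0.00449 and 0.0012 by the quasi-likelihood F test of edgeR (Benjamini-Hochberg). Klrc2 (ENSMUSG00000052736), the activating NKG2C gene next to it, went from 4.03 to 4.80 and from 1.08 to 1.22 CPM in control mice. In the cKO mice it went from 7.41 to 7.44, from 4.84 to 5.45 and from 1.79 to 2.59 CPM. Its log2 fold change was 0.22 in both genotypes (SE 0.25 and 0.20) and passed the test in neither.

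The balance of the 3 transcripts therefore shifted within each animal. Rested cells held 53.4 and 294 times more Klrd1 than Klrc1 in FPKM in control mice 1 and 2, and 29.7, 48.1 and 87.3 times more in cKO mice 1 to 3. Activated cells held 5.65 and 14.1 times more in control and 2.89, 5.29 and 6.13 times more in cKO mice. Klrc1 over Klrc2 ranged from 3.02 to 4.89 in rested and from 13.9 to 16.5 in activated libraries, so the 2 states did not overlap. These ratios carry no test, and the sequence shared by Klrc1 and Klrc2 bears on the second. The size of the ratios, though not their shift within a mouse, depends on the gene lengths used.

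**Figure D2:**
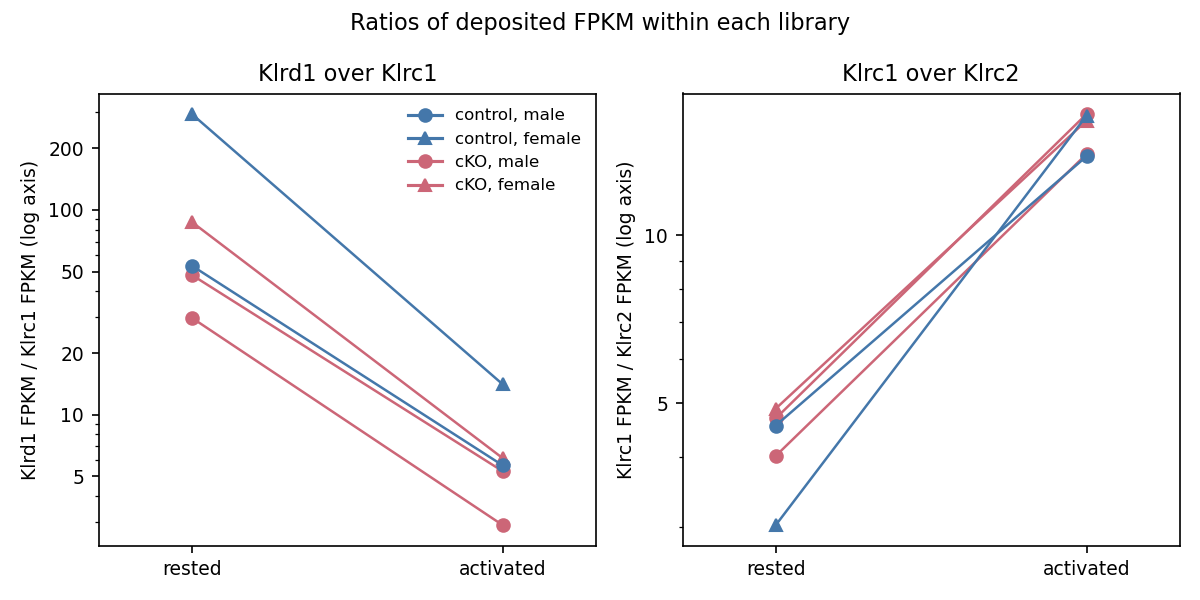
Ratio of FPKM values within each library for Klrd1 over Klrc1 (left) and Klrc1 over Klrc2 (right), on log axes, with a line per mouse. Klrd1 over Klrc1 runs from 29.7 to 294 at rest and from 2.89 to 14.1 after activation, and Klrc1 over Klrc2 from 3.02 to 4.89 and from 13.9 to 16.5.

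Klra3 and Klra7 rose at low levels in both genotypes, and Klra6 rose in all 5 mice but passed the test in cKO cells only. Klra3 (ENSMUSG00000067591, Ly49C) went from 0.6 to 1.34 and from 0.248 to 0.543 CPM in the control mice, and from 0.944 to 2.65, from 1.01 to 2.09 and from 0.424 to 1.28 CPM in the cKO mice. Klra7 (ENSMUSG00000067599, Ly49G) went from 1.2 to 2.29 and from 0.266 to 0.755 CPM in control, and from 1.91 to 2.88, from 1.6 to 2.48 and from 0.701 to 2.30 CPM in cKO mice. All 5 mice were higher after activation for each, by 2.07 to 3.01 times for Klra3 and 1.51 to 3.29 times for Klra7. The log2 fold change of Klra3 was 1.13 (SE 0.29) in control and 1.37 (SE 0.22) in cKO cells, and that of Klra7 was 1.07 (SE 0.40) and 1.00 (SE 0.30). The adjusted p of the quasi-likelihood F test of edgeR (Benjamini-Hochberg) was 0.00485 and 8.317e-05 for Klra3 and 0.0354 and 0.0112 for Klra7. Klra6 (ENSMUSG00000061769, Ly49F) had few reads, 25 and 2 counts in the rested and 40 and 11 counts in the activated libraries of the control mice, against 24, 23 and 13 and then 77, 61 and 20 counts in the cKO mice. By the quasi-likelihood F test of edgeR it passed in cKO cells, with a log2 fold change of 1.14 (SE 0.38) and an adjusted p of 0.0171, and not in control cells (0.92, SE 0.51, adjusted p = 0.143). The ratio in control mouse 2, 4.68, had a 95% counting interval of 1.02 to 43.4. The interaction of genotype and activation for Klra6 was 0.22 (SE 0.65) and was not called, so no genotype difference in its rise was shown.

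Klrb1c (ENSMUSG00000030325), the NK1.1 gene, fell with Klrd1. It went from 0.72 to 0.134 and from 0.479 to 0.257 CPM in control, and from 1.06 to 0.311, from 0.644 to 0.276 and from 0.645 to 0.135 CPM in cKO mice, which is 8 to 19 counts in an activated library. The lowest rested library lay above the highest activated one. The log2 fold change was -1.54 (SE 0.50) in control and -1.71 (SE 0.40) in cKO cells, with an adjusted p of 0.018 and 0.0019 by the quasi-likelihood F test of edgeR (Benjamini-Hochberg).

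Klrk1, Klre1 and Klrg1 passed the test in neither genotype. Klrk1 (ENSMUSG00000030149, NKG2D) stood at 7.84 and 2.79 CPM in rested and 6.76 and 4.08 CPM in activated control cells, and at 11.1, 7.59 and 3.76 against 11.7, 7.90 and 5.06 CPM in cKO cells. The groups overlapped, and its log2 fold change was 0.14 (SE 0.25) in control and 0.18 (SE 0.20) in cKO cells. Klre1 (ENSMUSG00000050241), a family member without signalling motifs of its own that associates with other Klr chains, stood at 1.48 and 0.745 CPM at rest and 1.19 and 0.664 CPM activated in control. In cKO mice it stood at 3.996, 2.02 and 1.51 CPM at rest and 2.52, 1.90 and 1.67 CPM activated. Klrg1 (ENSMUSG00000030114) had 10 counts in each rested control library and 14 in each activated one, and 17, 11 and 56 counts at rest and 29, 14 and 31 counts activated in cKO mice. Its highest library was the rested one of cKO mouse 3, at 1.03 CPM against 0.171 to 0.341 CPM in the other 4 rested libraries.

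In control cells 5 of the 10 genes passed with activation, 3 higher and 2 lower, beside 56.1% of all genes tested (28.5% higher and 27.6% lower). In cKO cells 6 passed, 4 higher and 2 lower, beside 63.4% (31.5% higher and 31.9% lower). The shares of the members, at 10 genes, lie near these backgrounds. Their median log2 fold change was 0.29 in control and 0.20 in cKO cells, against 0.00 and -0.01 over all genes tested. Rested and activated libraries of all 5 mice did not overlap for 2 members, both lower (Klrd1 and Klrb1c), where 57.2% of all genes did not overlap and 28.1% were lower. Without cKO mouse 3 the counts were again 5 and 6. Leaving out either control mouse left 1 in the control groups, and fewer members and fewer of all genes then passed in control cells. The median log2 fold change of the members in control cells was 0.40 without control mouse 1 and 0.36 without control mouse 2. Klra7 was lost in control cells without cKO mouse 1 (adjusted p = 0.0588 by edgeR), and Klra6 in cKO cells without cKO mouse 1 (0.154) or cKO mouse 2 (0.104). Without a sex term, the counts were 2 in control (Klrd1 and Klrb1c) and 3 in cKO cells (these and Klra3), beside 9916 and 11479 of 18966 genes.

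At rest the comparison of genotypes asks what differs before activation. Of the 10 genes, 9 had a positive log2 fold change in cKO cells, beside 51.3% of all genes tested, and 0 passed the test, beside 0.0422%. Klrg1 (1.54, SE 0.60) and Klre1 (1.0495, SE 0.30) had the highest values, and Klra7 (0.83, SE 0.37), Klrc1 (0.83, SE 0.39), Klra3 (0.74, SE 0.28), Klrc2 (0.66, SE 0.23) and Klra6 (0.65, SE 0.48) followed. Klrk1 stood at 0.36 (SE 0.23), Klrb1c at 0.33 (SE 0.41) and Klrd1 at -0.17 (SE 0.10). The median was 0.70 against 0.00 over all genes. All 10 adjusted p were 1 by the quasi-likelihood F test of edgeR (Benjamini-Hochberg), with 5 of the 10 and 783 of all genes at an unadjusted p below 0.05, and DESeq2's Wald test and limma-trend also called 0. Libraries of the 2 genotypes did not overlap for 2 members, Klre1 and Klrg1, both higher in cKO, beside 8.96% of all genes. For Klrg1 the nearest libraries were cKO mouse 2 with 11 counts and the control mice with 10 counts each. Without cKO mouse 3 the median was 0.57 with 9 of 10 positive, and Klrg1 stood at 0.56. The control mice set these values too: the median was 1.05 without control mouse 1 and 0.43 without control mouse 2, Klra6 stood at 2.30 and 0.17 and Klra7 at 1.85 and 0.37, with 0 called in each case.

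Activated cells gave a like picture. Again 9 of the 10 values were positive, beside 50.7% of all genes, and 0 passed, beside 0.0422% of all genes. At an unadjusted p below 0.05 were 4 members and 1142 of all genes. Limma-trend called 0 members. DESeq2's Wald test called 0 too, but it gave no adjusted p for Klrg1, Klra3, Klra6, Klra7 and Klrb1c, so it did not judge these. Klre1 (1.0456, SE 0.31), Klrg1 (0.99, SE 0.58), Klra3 (0.97, SE 0.24) and Klra6 (0.87, SE 0.42) were highest, and Klrb1c (0.17, SE 0.51) and Klrd1 (-0.03, SE 0.11) lowest. The lowest adjusted p was 0.516, for Klra3, by the quasi-likelihood F test of edgeR (Benjamini-Hochberg). The median was 0.76 against 0.00 over all genes. Klre1, Klrg1 and Klra7 did not overlap between genotypes, all higher in cKO, beside 7.7% of all genes. For Klrg1 and Klra7 only the scaling to library size separated the nearest libraries. Klrg1 had 14 counts in cKO mouse 2 and in each control mouse (0.241 against 0.234 and 0.211 CPM). Klra7 had 137 counts in cKO mouse 3 and in control mouse 1 (2.304 against 2.291 CPM). Without cKO mouse 3 the median was 0.51 with 10 of 10 positive and 0 called, and without control mouse 1 or 2 it was 1.05 or 0.61. With no low-count filter Klrc1 and Klre1 passed in both states (at rest 0.82, adjusted p = 3.437e-07, and 1.04, adjusted p = 0.00884, by edgeR), and without cKO mouse 2 Klrc1 passed in activated cells (0.98, adjusted p = 0.0272 by edgeR). The interaction of genotype and activation was called for 0 of the 10 members by edgeR, DESeq2 and limma-trend, with 0 at an unadjusted p below 0.05, beside 0% of all genes (519 at an unadjusted p below 0.05), and its values ran from -0.55 (Klrg1, SE 0.83) to 0.24 (Klra3, SE 0.37).

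**Figure D3:**
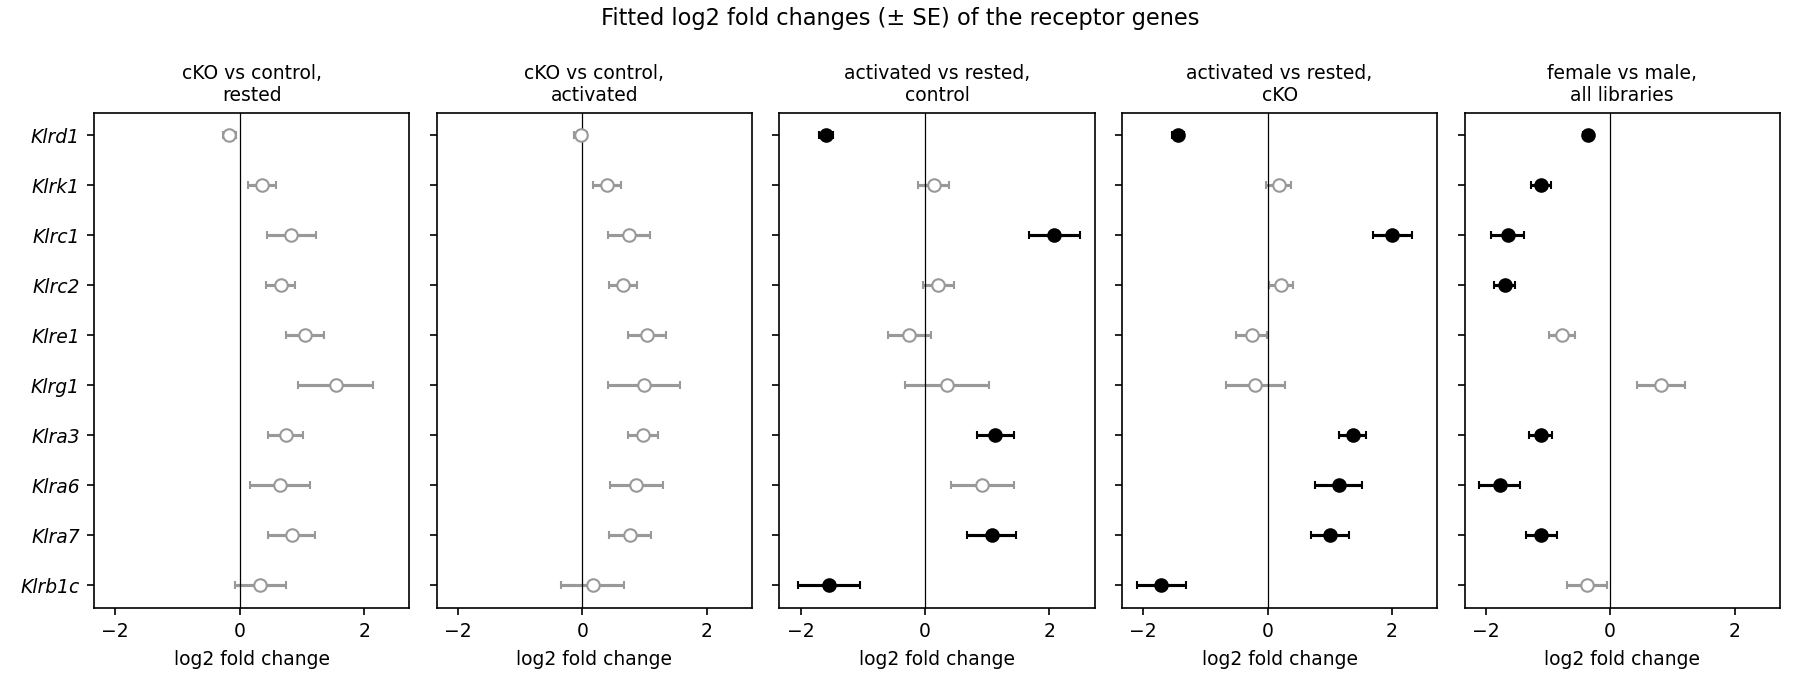
Log2 fold changes with SE of the 10 receptor genes in 5 comparisons of the same fit. Filled black points have an adjusted p below 0.05 and open grey points do not: 0 and 0 for genotype, 5 and 6 for activation, and 7 for sex, all 7 lower in females.

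Male and female mice differed in these genes, a comparison chosen after the values were seen. Sex coincides with the number that opens the mouse names, so sex and what that number marks cannot be told apart. In rested cells 6 members (Klrk1, Klrc1, Klrc2, Klra3, Klra6 and Klra7) were lower in both females than in all 3 males, beside 16.8% of all genes, and 6 were in activated cells (Klrd1 in place of Klra7), beside 16.9%. For Klrc2, rested females held 1.08 and 1.79 CPM and rested males 4.03, 4.84 and 7.41 CPM. In the fit over all 10 libraries 7 members were called, all lower in females, beside 2.83% of all genes lower and 4.07% in either direction. The log2 difference was -1.78 for Klra6 (SE 0.33), -1.69 for Klrc2 (SE 0.17), -1.65 for Klrc1 (SE 0.27), -1.12 for Klra3 (SE 0.18), -1.11 for Klrk1 (SE 0.16), -1.11 for Klra7 (SE 0.25) and -0.36 for Klrd1 (SE 0.08). The adjusted p of the quasi-likelihood F test of edgeR (Benjamini-Hochberg) ran from 0.000119 for Klrc2 to 0.0304 for Klra7. Klre1 (-0.77, adjusted p = 0.064) and Klrb1c (-0.37) were not called by edgeR, and Klrg1 was the only positive value (0.82, SE 0.39). The fit counts the 2 libraries of a mouse as separate samples, although sex varies only between mice, and the number of called members depended on the animals included. It was 4 without cKO mouse 1, beside 368 of 18690 genes, and 8 without cKO mouse 2, beside 727 of 18716 genes. Leaving out either control mouse or cKO mouse 3 left 1 control mouse or 1 female. Fewer members and fewer of all genes were called in these fits. The median log2 difference of the members was -0.86 without control mouse 1, -0.84 without control mouse 2 and -1.19 without cKO mouse 3.

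Compared within a sex, the genotype values kept their sign for most genes. At rest the mean of the 2 male cKO mice lay above the male control for 10 of 10 members (median log2 ratio 0.55) and the female cKO mouse above the female control for 9 of 10 (median 0.90). For 6 members, Klrc1, Klrc2, Klre1, Klrg1, Klra3 and Klra7, each of the 3 cKO mice lay above the control of its sex. For Klrg1 this rests on 11 counts in cKO mouse 2 against 10 in the male control. After activation the numbers were 10, 8 and 8 of 10, with medians of 0.60 and 1.07. There Klrg1 had 14 counts both in cKO mouse 2 and in the male control. Each sex has 1 control mouse, so the members share its deviation and no test was made.

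Ligands, adaptors and transcription factors tied to these receptors were read from lists. Of 8 tested ligand genes, 4 rose and 1 fell with activation in control cells, and 3 rose and 2 fell in cKO cells. That is 5 of 8 in each, beside 56.1% of all genes called in control and 63.4% in cKO cells. Ulbp1, an NKG2D ligand gene, rose from 27.6 ± 3.5 to 94.0 ± 7.5 CPM in control cells (log2 fold change 1.77, SE 0.12) and by 1.57 (SE 0.10) in cKO cells. H2-T23, the Qa-1 gene read by CD94 with NKG2A, rose by 0.41 (SE 0.08) and 0.50 (SE 0.06), and B2m, the MHC class I light chain, by 0.28 and 0.20. Cdh1, E-cadherin, a KLRG1 ligand, fell from 4.80 ± 3.13 to 1.06 ± 0.58 CPM in control cells (-2.15, SE 0.30) and stood at -2.39 (SE 0.24) in cKO cells, where it passed as well.

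Of 14 tested adaptor and signalling genes, 4 rose and 8 fell in each genotype, beside 28.5% of all genes higher and 27.6% lower in control and 31.5% and 31.9% in cKO cells. Ptpn6, the SHP-1 phosphatase recruited by inhibitory receptor tails, rose by 1.60 (SE 0.07) in control and 1.58 (SE 0.06) in cKO cells, and Zap70, a kinase downstream of the T cell receptor, by 1.16 in both. Pik3r1, a PI3 kinase subunit, stood at -1.01 and -1.10, and Sh2d1a, the adaptor SAP, at -1.30 and -1.37, and both fell in both genotypes. Hcst, the DAP10 adaptor that NKG2D needs and a gene named outside the naming rule after its values were seen, fell by 0.85 (SE 0.09) and 0.76 (SE 0.07). Tyrobp, the DAP12 adaptor of NKG2C and activating Ly49 receptors, had 14 to 26 counts summed over the libraries of a group.

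Of 15 transcription factor genes, 3 rose and 7 fell in control and 4 rose and 7 fell in cKO cells, beside the 56.1% and 63.4% of all genes called. Zeb2, linked to terminal effector differentiation, rose from 0.592 ± 0.060 to 7.14 ± 1.71 CPM in control and from 1.16 ± 0.30 to 12 ± 1.46 CPM in cKO cells. Runx3, a RUNX factor of the CD8 lineage, fell from 193 ± 1.8 to 114 ± 3.5 CPM in control (log2 fold change -0.76, SE 0.06) and by 0.98 (SE 0.05) in cKO cells. Ets1 (-1.06 and -1.05) and Bcl11b (-0.98 and -1.03) fell as well.

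Among the other lectin genes of the complex, 32 of 33 listed were in the table and 16 were tested, of which 5 rose in control cells, and 5 rose and 3 fell in cKO cells, beside 56.1% and 63.4% of all genes called in either direction. Cd69, an early activation marker that lies in the complex, rose from 23.8 ± 3.9 to 553 ± 55.5 CPM in control cells. Clec2d, a ligand of an NKR-P1 receptor, rose by 0.36 and 0.17. Klri2, which codes for a partner chain of KLRE1, rose by 1.63 (SE 0.39) in cKO cells and stood at 1.22 (SE 0.49, adjusted p = 0.0518 by edgeR) in control cells. Not every Ly49 gene went up: Klra10 fell by 1.68 (SE 0.37) in cKO cells and stood at -0.83 (SE 0.51) in control cells, and the pseudogene Klra13-ps fell by 0.50 (SE 0.20, adjusted p = 0.048 by edgeR) in cKO cells and stood at -0.37 (SE 0.26) in control cells. Klra13-ps was named after its values were seen. In the genotype comparisons 15 of the 16 were positive at rest (median 0.38) and 13 after activation (median 0.41), beside 51.3% and 50.7% of all genes. EdgeR called 0 of the 16 in either state, beside 0.0422% of all genes in each. At an unadjusted p below 0.05 were 5 and 2 of the 16, beside 783 and 1142 of 18966 genes. Clec2h, Clec12b and Clec1a had 0 counts in all 10 libraries.

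Markers of antigen-experienced cells were read in the same mice. Of 13 memory-phenotype genes, 13 were positive in cKO against control at rest (median 0.50) and 13 after activation (median 0.50). Over all genes 51.3% and 50.7% were positive. EdgeR called 0 of the 13 in either state, beside 0.0422% of all genes in each. At an unadjusted p below 0.05 were 2 and 4 of the 13, beside 783 and 1142 of 18966 genes. The summed level of the 13 genes at rest was 947 and 607 CPM in the control mice and 1260, 1052 and 833 CPM in the cKO mice. After activation it was 871 and 715 CPM against 1086, 984 and 1037 CPM. The sum of the 9 receptors other than Klrd1 was 22.7 and 6.94 CPM at rest in control mice and 39.1, 24.9 and 13.1 CPM in cKO mice, so the female control was lowest and cKO mouse 1 highest in both sums. After activation it was 40.1 and 14.7 CPM against 71.1, 47.4 and 28.1 CPM. There control mouse 1 lay above cKO mouse 3 in the receptor sum and below it in the memory sum, so the order of the mice differed. Their part in the genotype values was not tested. Ccl5, a chemokine gene of memory cells, stood at 132 ± 105 CPM at rest in control and 232 ± 112 CPM in cKO cells and was lower in females by 1.68 (SE 0.12, adjusted p = 0.000247 by the quasi-likelihood F test of edgeR). Of the 13 memory-phenotype genes, Ccl5 was the 1 called by sex, beside 4.07% of all genes. The median of the 13 by sex was -0.31. With activation, Xcl1 (log2 fold change 6.50 and 6.69) and Il2rb (0.51 and 0.52) rose, and Ccl5 (-1.63 and -1.66) and Ctsw (-0.99 and -1.05) fell, in control and cKO cells in this order.

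**Figure D4:**
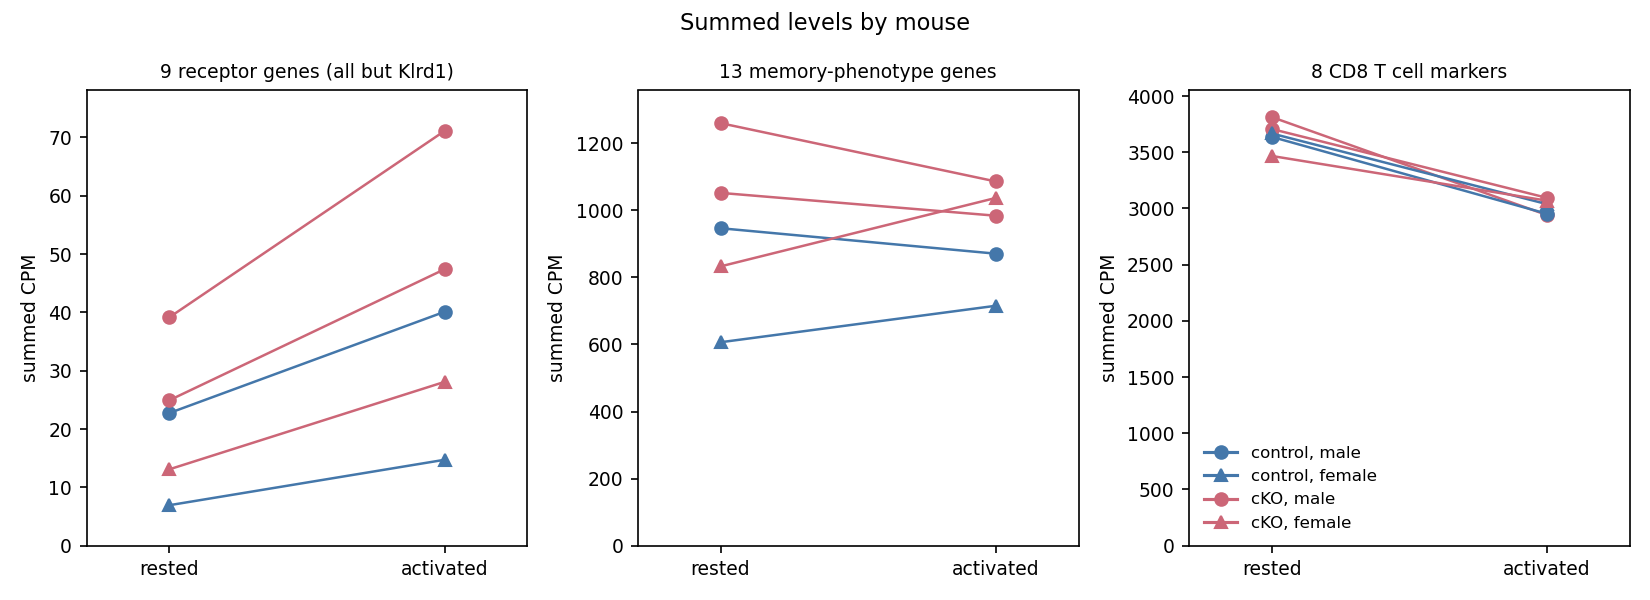
Summed CPM of the 9 receptor genes other than Klrd1 (left), of 13 memory-phenotype genes (middle) and of 8 CD8 T cell markers (right), with a line per mouse. At rest the female control is lowest in the first 2 panels (6.94 and 607 CPM) and cKO mouse 1 highest (39.1 and 1260 CPM), while the CD8 T cell markers lie between 3467 and 3813 CPM.

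Markers of other cell types were read beside these results. The 8 CD8 T cell markers summed to 3467 to 3813 CPM at rest and 2941 to 3094 CPM after activation, and 1 rose (Trac) while 6 fell in control cells and 7 in cKO cells. The 12 natural killer cell markers summed to 48.1 to 50.9 CPM in the control and 45.4 to 57.9 CPM in the cKO libraries at rest, and to 67.8 to 76.5 and 68.1 to 97.0 CPM after activation. Most of that sum came from Prf1 (37.3 ± 1.1 CPM in rested control cells) and, after activation, Irf8 (33.8 ± 7.8 CPM), which T cells express too. Of the 8 natural killer markers tested, 1 rose (Irf8) and 3 fell in each genotype with activation, among them Itga2 (-2.53 and -2.39), Fcgr3 (-1.66 and -1.79) and Adamts14 (-2.37 and -1.44), in the direction of Klrd1 and Klrb1c. Of all genes, 56.1% were called in control and 63.4% in cKO cells, with 27.6% and 31.9% of all genes lower. Their part in the fall of these 2 was not tested. Innate-like and gamma-delta markers summed to 39.0 to 55.2 CPM over all libraries, CD4 and regulatory T cell markers to 18.9 to 93.8 CPM and B cell markers to 226 to 361 CPM, most of it Ighm (306 ± 44 CPM in rested control cells). Myeloid and dendritic cell markers summed to 1.03 to 4.05 CPM, and Fcgr1 had 0 counts in all libraries.

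The genes with the most similar pattern over the 10 libraries were sought among 13437 genes with at least 1 CPM on average. The measure was the root mean square difference between log2(CPM + 0.5) profiles centred on each gene's mean. Klrd1 lay nearest to Hs3st3b1 (0.08) and, among named genes, Nbeal2 (0.09), where the spread of Klrd1 about its own mean was 0.78. Klrc1 lay nearest to Aqp9 (0.32), Stc2 (0.38) and Zbtb7b (0.47), with a spread of its own of 1.35. The nearest genes to Klra3 were Rnf43 (0.24), Ctif (0.24) and Eomes (0.27), and to Klra7 Chst11 (0.15), Rnf43 (0.22) and Eomes (0.24). Eomes, a T-box factor of memory and killer cells, stood at 19.1 ± 9.4 CPM (control) and 33.7 ± 11.2 CPM (cKO) at rest, and at 34.1 ± 9.6 and 60.5 ± 16.3 CPM after activation. Klrk1 lay nearest to Inppl1 (0.15), Farp1 (0.16) and Pcgf2 (0.17), Klrc2 to Dusp3 (0.22), Rbfox2 (0.23) and Zdhhc2 (0.25), and Klre1 to Cxcr5 (0.23), Gm33460 (0.24) and Wdr95 (0.25). Within the family, Klra3 lay closest to Klra6 (0.23) and Klra7 (0.24), Klrk1 to Klrc2 (0.28), and Klrd1 to Klrb1c (0.44), while Klrd1 and Klrc1 lay farthest apart (1.91). The limit of 1 CPM was not applied within the family. Klra6 (0.507 CPM on average) and Klrb1c (0.466 CPM) lie near the added 0.5, which flattens their profiles, so their distances are less certain. The points of such a profile share libraries and animals, so the distances are a description.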

How the data were processed

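RNA was measured by bulk sequencing of stranded mRNA libraries, per the labels' protocols. Counts per gene were deposited by the authors without normalization, made with Subread on mm39, with FastQC and MultiQC, per the submitters' processing notes. The sources used here do not name the tool versions, the annotation release or the strand setting. The deposited FPKM values equal the count over gene length plus 1 and over the column sum, to a relative difference of 9.4e-07; they were used for levels between genes. The 10 receptor genes, the gene lists and the naming rule were chosen with earlier results of these data known.

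Counts were fitted in R 4.3.3 with edgeR 4.0.16 (TMM, filterByExpr by group, robust quasi-likelihood fit of group means plus sex over 10 libraries, threshold 0.05 after Benjamini-Hochberg adjustment over 18966 genes). The fit had 5 residual degrees of freedom and a biological coefficient of variation of 9.14%. Mice of a group are separate animals, and replicates differed beyond counting error (chi-square per degree of freedom of at least 8.55). Counting intervals and floors cover counting error only. Tests were checked on simulated counts drawn independently for each library. These held no sex difference and no pairing by mouse, so the check does not cover either. Named by rule were the 10 genes, Dusp2, up to 4 genes a list by smallest p, the 3 nearest profiles of each member with at least 1 CPM on average, and defining markers at 0. Rested and activated libraries of a mouse pair by animal (correlation of deviations from group means 0.13 to 0.32). Alternatives were DESeq2 1.42.0 (size factors, Wald test), limma 3.58.1 on log2(FPKM + 0.5), other filters, no sex term, a mouse block, the compared groups alone, and each mouse left out. Python 3.11.15 made tables and figures.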

Additional observations from a re-analysis of the deposited data

Results flagged for a closer look

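Klrb1c, the NK1.1 gene, differed between the genotypes in opposite directions in the 2 sexes after activation. The mean of both male cKO mice lay above the male control by 1.13 on the log2 scale (0.311 and 0.276 against 0.134 CPM), and the female cKO mouse stood at -0.93 against the female control (0.135 against 0.257 CPM). Activated libraries held 8 to 19 counts of this gene, and the difference between the sexes was not tested.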

How the results depend on the processing

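The genotype calls among the members depended on the low-count filter. With no filter 2 members were called at rest and 2 after activation, against 0 with a filter and all 5 mice. All genes called went from 8 to 204 and from 8 to 211. The cause was not tested. Over all genes at rest, DESeq2's Wald test called 29, limma-trend 5 and the filter of 5 CPM in 2 libraries 5, and after activation 19, 4 and 5, with 5 when only the groups compared were fitted. For the interaction, no filter gave 39 and DESeq2 3 where edgeR gave 0. The filter of 5 CPM in 2 libraries leaves 4 members to test, of which 2 were called with activation in control, 2 in cKO cells and 4 for sex. Of the 10957 genes left by this filter, 8269, 8871 and 612 were called in these comparisons. Without a sex term 2 members were called with activation in control and 3 in cKO cells, beside 9916 and 11479 of 18966 genes. With the mouse as replicate block the member counts were 0, 0, 5, 6, 0 and, for sex, 7, and no activation call of a member changed. The genotype and sex contrasts took the mouse as a random effect, whose estimated correlation after the sex term was -0.135; a negative value narrows differences between mice, so these counts do not show that the sex or genotype calls hold with pairing. Calls by sex over all genes were 771, and 1911 with no filter, 1275 by DESeq2, 253 by limma-trend and 1441 with the block.

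Leaving out 1 mouse at a time, members called ran from 0 to 1 for genotype after activation, from 3 to 5 for activation in control, and from 3 to 8 for sex. All genes called reached 25 at rest and 49 after activation without cKO mouse 2, 15 at rest without control mouse 1, and 3 for the interaction without cKO mouse 3, and fell to 6981 for activation in control without control mouse 2. For sex they ran from 169 to 727. Where 1 control mouse remained, its spread was taken from the other groups.

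Of 714 member values under alternatives, 33 changed sign, none of them called before or after. Without a sex term Klrd1 stood at 0.0384 for genotype after activation. For the interaction, Klrc1 (0.0376) and Klra7 (0.0552) turned with limma-trend, Klrc2 with the filter of 5 CPM (-0.0057), no sex term (-0.0839) and the replicate block (-0.0095), and Klre1 with DESeq2 size factors (0.0058), no filter (0.0073), the Wald test (0.0073) and the replicate block (0.0214). Leaving out 1 mouse, genotype values of Klrd1 ran from -0.42 to 0.0313 at rest and from -0.11 to 0.11 after activation, and those of Klrb1c after activation from -0.57 to 1.00. For activation, Klrk1 ran from -0.20 to 0.55 in control, and Klre1 from -0.44 to 0.0331 and Klrg1 from -0.55 to 0.44 in cKO cells. Interaction values ran from -0.0563 to 0.35 for Klrd1, -0.34 to 0.40 for Klrk1, -0.60 to 0.14 for Klrc1, -0.14 to 0.14 for Klrc2, -0.19 to 0.29 for Klre1, -0.91 to 0.0922 for Klrg1, -0.98 to 0.52 for Klra6, -0.53 to 0.15 for Klra7 and -0.81 to 0.69 for Klrb1c. Klrg1 by sex ran from -0.0576 to 1.29. Depth limits Klra6, Klrb1c and Klrg1, with 2 to 77 counts a library.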
